A study of Mus musculus with 4 samples.

Results

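Whole mouse epidermis 1 day after ablation of ΔNp63 is described here from summed single-cell libraries, without sorting the barcodes into cell types. All barcodes of the 2 one-day matrices with at least 1368 gene UMIs and at most 15% mitochondrial UMIs were summed per library. These are 59998 of the 109216 barcodes deposited over 4 libraries, 28136 from the control and 31862 from the ablated library. A UMI, or unique molecular identifier, marks 1 captured RNA molecule, and 1368 is the lowest gene UMI count listed in the ablated library. The study asks what ΔNp63 does for stem cell identity and inflammation in adult skin, and it also holds a pair of libraries from 1 week after ablation. Control mice were DNp63fl/fl, with both ΔNp63 alleles flanked by loxP sites and no Cre recombinase. Ablated mice were DNp63fl/fl;K14-CreT2, in which a tamoxifen-dependent Cre is driven by the keratin 14 promoter, active in basal keratinocytes. Both genotypes received tamoxifen by gavage at 200 mg/kg on 5 days, so the controls carry the drug and the floxed alleles but not the Cre. Per the labels, ages in the study ran from 2 to 17 months, males and females were used, and the skin was floated in 0.25% trypsin either cold or at 37 °C. Which age or digestion went into which library is not labelled.

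The transcription factor p63 marks the basal layer of stratified epithelia, and ΔNp63, its isoform from an internal promoter, is the main form in epidermis. It is known for keeping basal keratinocytes attached and able to renew, and for holding the stratified epithelial programme in place. Epidermis is built in layers. Basal cells carry keratins 5, 14 and 15 and sit on the basement membrane, spinous cells above them switch to keratins 1 and 10, and granular cells make the proteins and lipids of the cornified barrier. Keratins 8 and 18 belong to simple, single-layered epithelia and are not a usual part of adult interfollicular epidermis.

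Each group was 1 library, so no difference given here has a replicate check and none was tested. Levels are UMI counts scaled to the same total of gene UMIs in each library, in the usual unit CPM, over the summed barcodes, and each log2 ratio of ablated over control is followed by its exact 95% interval, which covers counting error only. The sums held 173953001 control and 143358193 ablated UMIs, with medians of 4768 and 3502 UMIs per barcode. Ribosomal protein genes took up 24.8% of control and 19.1% of ablated UMIs, and mitochondrial genes 4.35% and 4.43%. The libraries shared 245 barcodes, 0.871% of the control ones. Both one-day matrices also list 4 hashtag antibody features. The first 3 had medians of 70 to 139 counts per barcode, and the fourth had a median of 0. In 59.8% of control and 34.6% of ablated barcodes 1 hashtag led the next by at least 2-fold. These hashtag-led sets, 3 per library, show how far a level varied within a library. The labels do not say what the hashtags mark, so the sets are not replicates, and the led barcodes were deeper than the rest.

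The tissue label was checked against cell type markers. The 10 keratinocyte markers summed to 31279 CPM (control) and 25014 CPM (ablated). All 10 passed the filter of 1 CPM in the mean. The 12 Langerhans cell and myeloid markers summed to 1174 and 1392 CPM, with the hashtag-led sets overlapping (control 1018 to 2200 CPM, ablated 1645 to 2291 CPM). Merkel cell markers summed to 0.431 and 0.705 CPM, and their defining factor Atoh1 had 0 UMIs in both libraries. Markers of mast cells, muscle, fat and endothelium summed to at most 3.64 CPM. Although the study used both sexes, Xist was near 0 and the Y-linked Ddx3y stood at 93.1 and 101 CPM, with such levels in every hashtag-led set of both libraries.

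Trp63, the targeted gene (chromosome 16, 25683763 to 25892102 in GRCm38, plus strand), had a level of 113 CPM after ablation against 391.6 CPM without it. Its log2 ratio was -1.80 (-1.82 to -1.77). The hashtag-led sets reached no lower than 374 CPM in the control and no higher than 118 CPM after ablation, so the libraries did not overlap. Counts are per gene from a 3′ kit and separate neither the isoforms nor the deleted exon. In a sum over all cells, fewer cells of a type and less RNA per cell cannot be told apart, and this holds for every level below. After each barcode was thinned to 1368 UMIs, Trp63 was seen in 39.4% (38.9 to 40.0) of control and 13.6% (13.2 to 13.98) of ablated barcodes. The background of this measure was taken from barcodes with at least 20 UMIs of T cell and Langerhans cell markers after thinning. Trp63 was seen in 15.9% of the 755 such control and 7.08% of the 904 such ablated barcodes, whose median depths were 2611 and 2493.5 UMIs. The T cell marker Cd3e was seen in 21.5% of these control and 4.98% of these ablated barcodes, so the sets differed in make-up. At the planned limit of at least 5 such UMIs before thinning, Trp63 was seen in 32.8% of control and 12.8% of ablated barcodes. Their median depths were unlike, at 6746 and 2941 UMIs. Krt14 was seen in 75.3% and 79.7% of barcodes at that limit, beside 78.7% and 81.4% of all thinned barcodes. At the limit of 20 UMIs its shares were 60.0% and 58.2%. Most barcodes of both sets thus held keratinocyte RNA, and its source was not tested. Without thinning the shares of all barcodes with Trp63 were 73.8% and 28.0%. Trp63 was lower in the ablated library within each of 4 depth classes of barcodes, with log2 ratios between -1.26 and -2.12.

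Among the 11601 genes with a mean of at least 1 CPM over the libraries, 426 (3.67%) were at least 2-fold higher in the ablated library and 221 (1.91%) at least 2-fold lower, 647 (5.58%) in all. These 2-fold counts are the background for all gene groups below. A gene below 1 CPM in either library passed this filter only through the other library, which set the sign of its ratio. At least 4-fold higher were 113 genes (0.974%) and at least 4-fold lower 32 (0.276%). At 8-fold the counts were 44 (0.379%) and 9 (0.0776%). The median log2 ratio of all measured genes was -0.029, and their middle 90% lay between -0.67 and 0.83. With totals that leave out mitochondrial and ribosomal protein genes, every ratio was 0.11 lower, and 354 genes were called higher against 319 lower. The share of higher calls was 65.8% with all genes in the totals and 52.6% without these. The genes called higher took up 1.95% of control and 5.76% of ablated UMIs, and those called lower 2.09% and 0.854%. In 395 of the 426 higher genes all 3 ablated hashtag-led sets lay above all 3 control sets, which held for 17.9% of all measured genes. In 211 of the 221 lower genes all ablated sets lay below, against 21.3% of all measured genes. The sets lay apart by at least 2-fold for 157 higher and 79 lower genes, out of 158 and 79 among all measured genes (1.36% and 0.681%). Sets so far apart nearly entail a call, since they are parts of the summed barcodes.

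**Figure D1:**
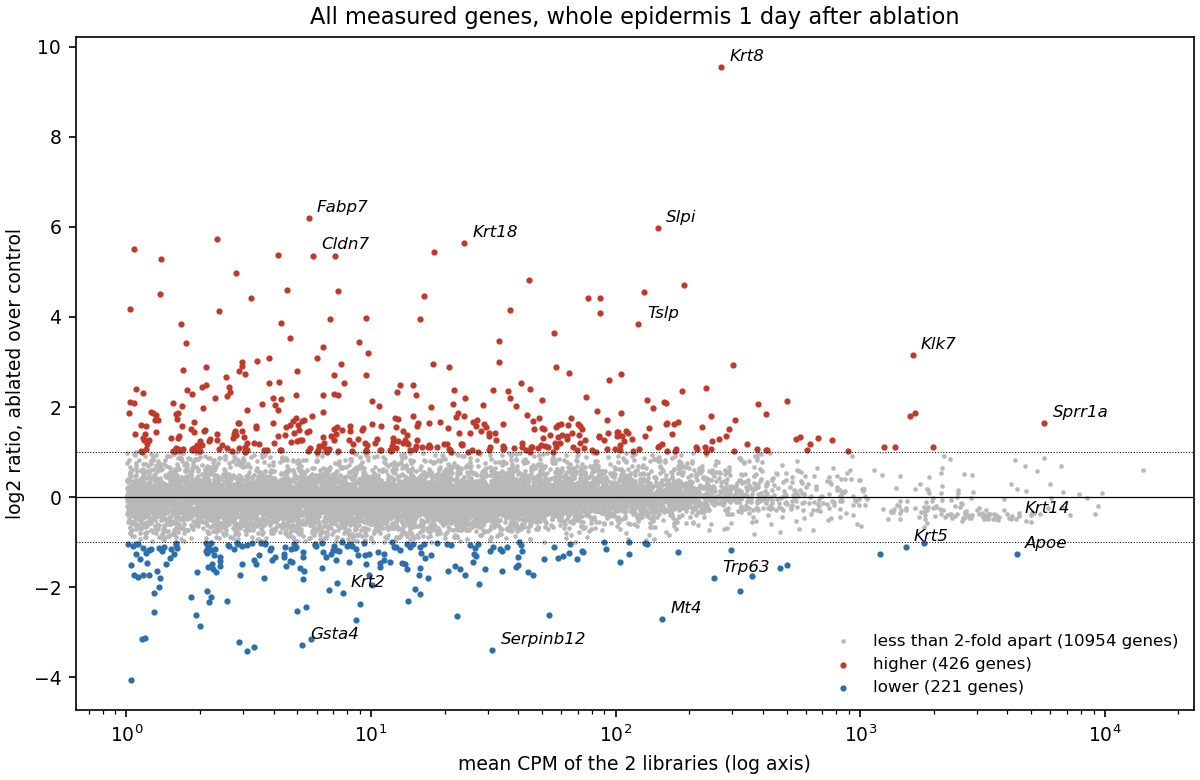
Each point is 1 of 11601 measured genes, with its mean CPM over the 2 libraries on a log axis and the log2 ratio of ablated over control on the vertical axis. The 426 genes at least 2-fold higher are red, the 221 at least 2-fold lower are blue, and Krt8 stands apart at 9.54.

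Krt8, which encodes the type II keratin of simple epithelia (chromosome 15, 101996698 to 102004482, minus strand), had the highest ratio of the measured genes. It had 126 UMIs (0.724 CPM) in the control against 77224 UMIs (539 CPM) after ablation, and its log2 ratio was 9.54 (9.29 to 9.80). All 3 ablated hashtag-led sets lay between 459 and 542 CPM, while the control sets lay between 0.394 and 0.880 CPM. Krt18, its type I partner on the same chromosome (102028180 to 102032027, plus strand), went from 0.943 to 46.9 CPM, a log2 ratio of 5.64 (5.41 to 5.87). Its sets spanned 0.703 to 1.27 CPM and 40.0 to 48.9 CPM. Both keratins of the pair were thus at near-zero levels in every control set and at similar levels across the ablated sets. The other 2 measured members of the 6 simple keratin genes listed were within 2-fold.

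Krt8 was spread over many ablated barcodes. At 1368 UMIs per barcode it was seen in 32.3% (31.8 to 32.8) of ablated and 0.121% (0.0837 to 0.169) of control barcodes. Among the immune-marker barcodes the shares were 17.3% (14.8 to 19.9) and 0.132%. These barcodes were taken as a guide to the level that free RNA or doublets could bring. The part of either in the shares was not tested. Most barcodes of this set, as of the planned one, also held Krt14, so neither set is known to be free of keratinocytes. At 3 or more Krt8 UMIs the shares were 10.3% of all ablated and 4.09% of immune-marker ablated barcodes. In the control it was 0 of 28136 barcodes, which allows a share of up to 0.0107%. At the planned limit of 5 immune-marker UMIs, Krt8 was seen in 30.8% of ablated and 0.140% of control barcodes, near the shares of all barcodes. The highest 10% of ablated barcodes held 61.4% of its UMIs. Unthinned shares were 46.9% and 0.341%. The log2 ratio of Krt8 was between 7.90 and 9.68 in all 4 depth classes.

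The thinned ablated barcodes were then compared by their Krt8 UMIs. They numbered 3266 with 3 or more, 7036 with 1 or 2 and 21560 with 0. This is a range and not a cell type, since 2253 barcodes lay just below the limit with 2 UMIs and 1261 just above it with 3. Krt18 was at 214.9 CPM in the barcodes with 3 or more Krt8 UMIs and at 16.7 CPM in those with 0. The basal keratin Krt14 was at 6551 and 3048 CPM, and the cytokine gene Tslp at 703 and 141 CPM. Ly6c1, a Ly6 family surface protein, was at 741 and 152 CPM. Barrier genes did not share 1 order. Lower in the barcodes with most Krt8 were Lor at 188 and 846 CPM, Flg at 38.5 and 210.1 CPM and Klk6 at 13.9 and 71.7 CPM. Sprr2a3 was higher there, at 357 and 107 CPM, while Klk7, at 2666 and 2624 CPM, and Tchh, at 59.3 and 48.4 CPM, differed less. Trp63 was at 66.5 CPM in the barcodes with most Krt8 and 142 CPM in those without, and Col17a1, a hemidesmosome collagen of basal cells, at 178 and 351 CPM. Krt5 was at 1355 and 1020 CPM and Krt15 at 1331 and 1482 CPM. Some genes went against their library ratio. Mt4, lower in the ablated library, was at 93.1 and 29.0 CPM, and Slpi, higher in that library, was at 134 and 256 CPM. Krt6a (385 and 777 CPM) and Krt6b (36.5 and 137.9 CPM) went as Slpi did. So did Lor, Flg, Klk6, Sprr2d, Sprr2e, Sprr2f and Sprr2i above. Barcodes with much Krt8 thus held more Krt14, Krt18, Tslp, Ly6c1 and Mt4 and less Lor, Flg, Slpi and Trp63 than other ablated barcodes. The part of free RNA in these levels was not tested.

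**Figure D2:**
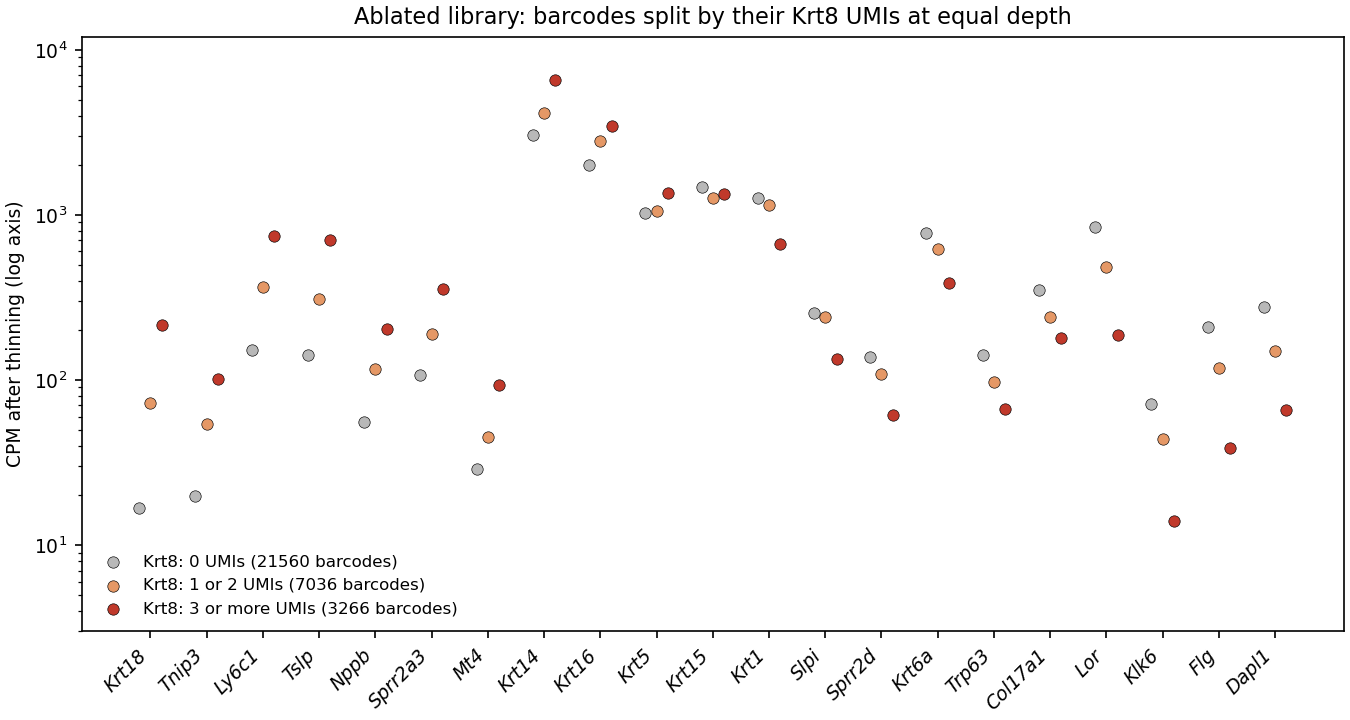
Points give the CPM of 21 genes, on a log axis, in ablated barcodes thinned to 1368 UMIs and split by their Krt8 UMIs (0, 1 or 2, and 3 or more). Krt18 goes from 16.7 CPM without Krt8 to 214.9 CPM at 3 or more, and Lor from 846 to 188 CPM.

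Slpi, which encodes a secreted inhibitor of leukocyte elastase, followed Krt8 by the fixed ranking, which takes genes of at least 10 CPM in the mean. It was at 4.65 CPM without and 293 CPM with ablation (log2 ratio 5.98, 5.88 to 6.08). The ablated hashtag-led sets differed among themselves, at 176, 276 and 466 CPM, and all lay above the control sets of 3.14 to 6.59 CPM. Slpi was seen in 12.3% of thinned ablated and 0.238% of control barcodes, against 5.199% of immune-marker barcodes in the ablated library. At the planned limit of 5 immune-marker UMIs that last share was 11.8%. Nppb, the precursor of natriuretic peptide B, went from 3.04 to 85.3 CPM, with 166 CPM in 1 ablated set and 48.7 and 57.1 CPM in the others. Slurp1, a secreted Ly6 protein whose loss causes a palmoplantar keratoderma in people, went from 14.1 to 367 CPM. Ly6c1 went from 10.8 to 251 CPM, Fxyd4, a regulator of the sodium pump, from 1.43 to 31.5 CPM, and Tnip3, a negative regulator of NF-κB signalling, from 4.10 to 31.7 CPM. Slc6a14, a transporter of neutral and basic amino acids, went from 70.3 to 536 CPM, and its sets spanned 45.7 to 101 CPM and 517 to 592 CPM. No hashtag-led set of the ablated library reached down to a control set for any of these genes. That held for 395 of the 426 higher genes and 17.9% of all measured genes.

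**Figure D3:**
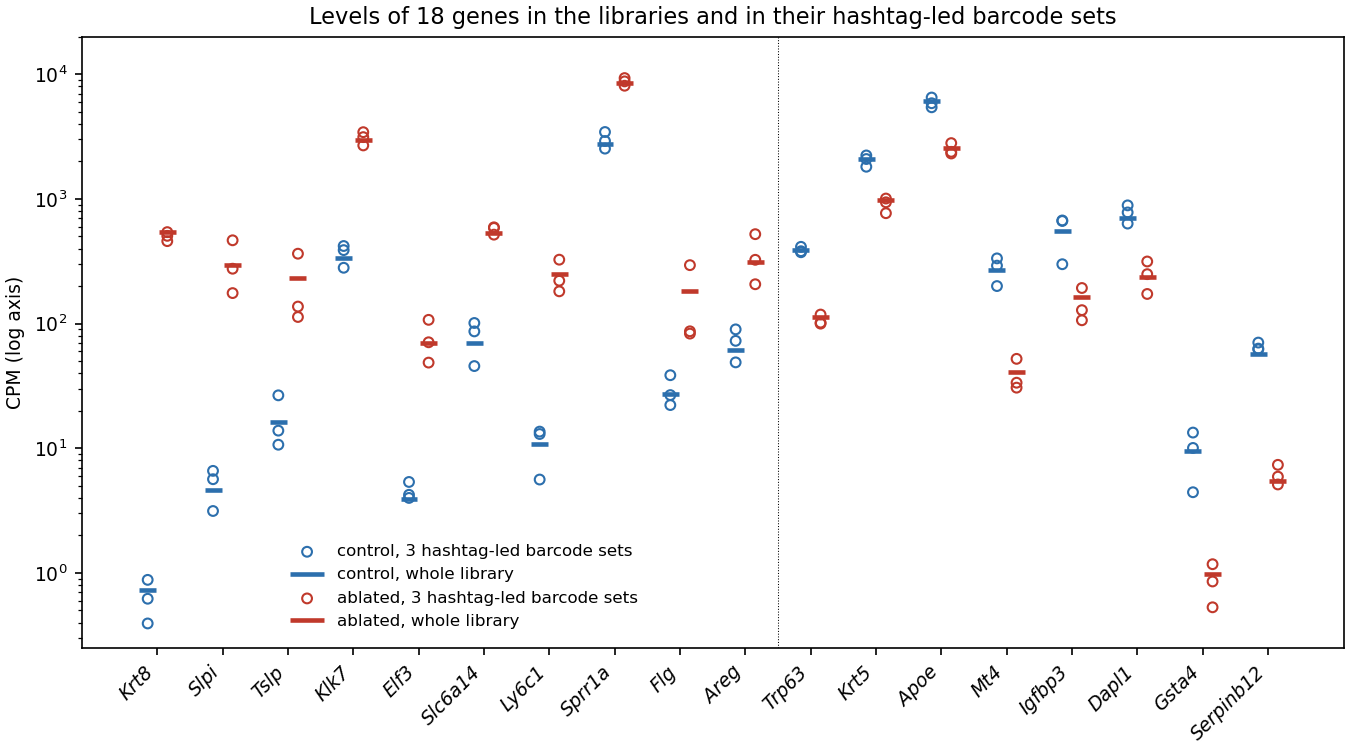
Levels in CPM on a log axis of 10 genes that were higher and 8 that were lower in the ablated library. Bars give each whole library and open circles its 3 hashtag-led barcode sets. The circles of the libraries do not overlap for any of the 18 genes. This also held for 395 of all 426 higher and 211 of all 221 lower genes. The ablated circles of Tslp and Flg lie several-fold apart.

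Gene groups were read against the background of 3.67% higher and 1.91% lower. The groups were chosen with earlier results of these data known. Of 41 groups, 23 had more members called higher than lower and 6 the reverse. With totals that leave out mitochondrial and ribosomal protein genes these counts were 19 and 8. Cornified envelope, Sprr2, protease, antimicrobial and wound keratin groups had from 52.5% to 100% of their measured members called higher.

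**Figure D4:**
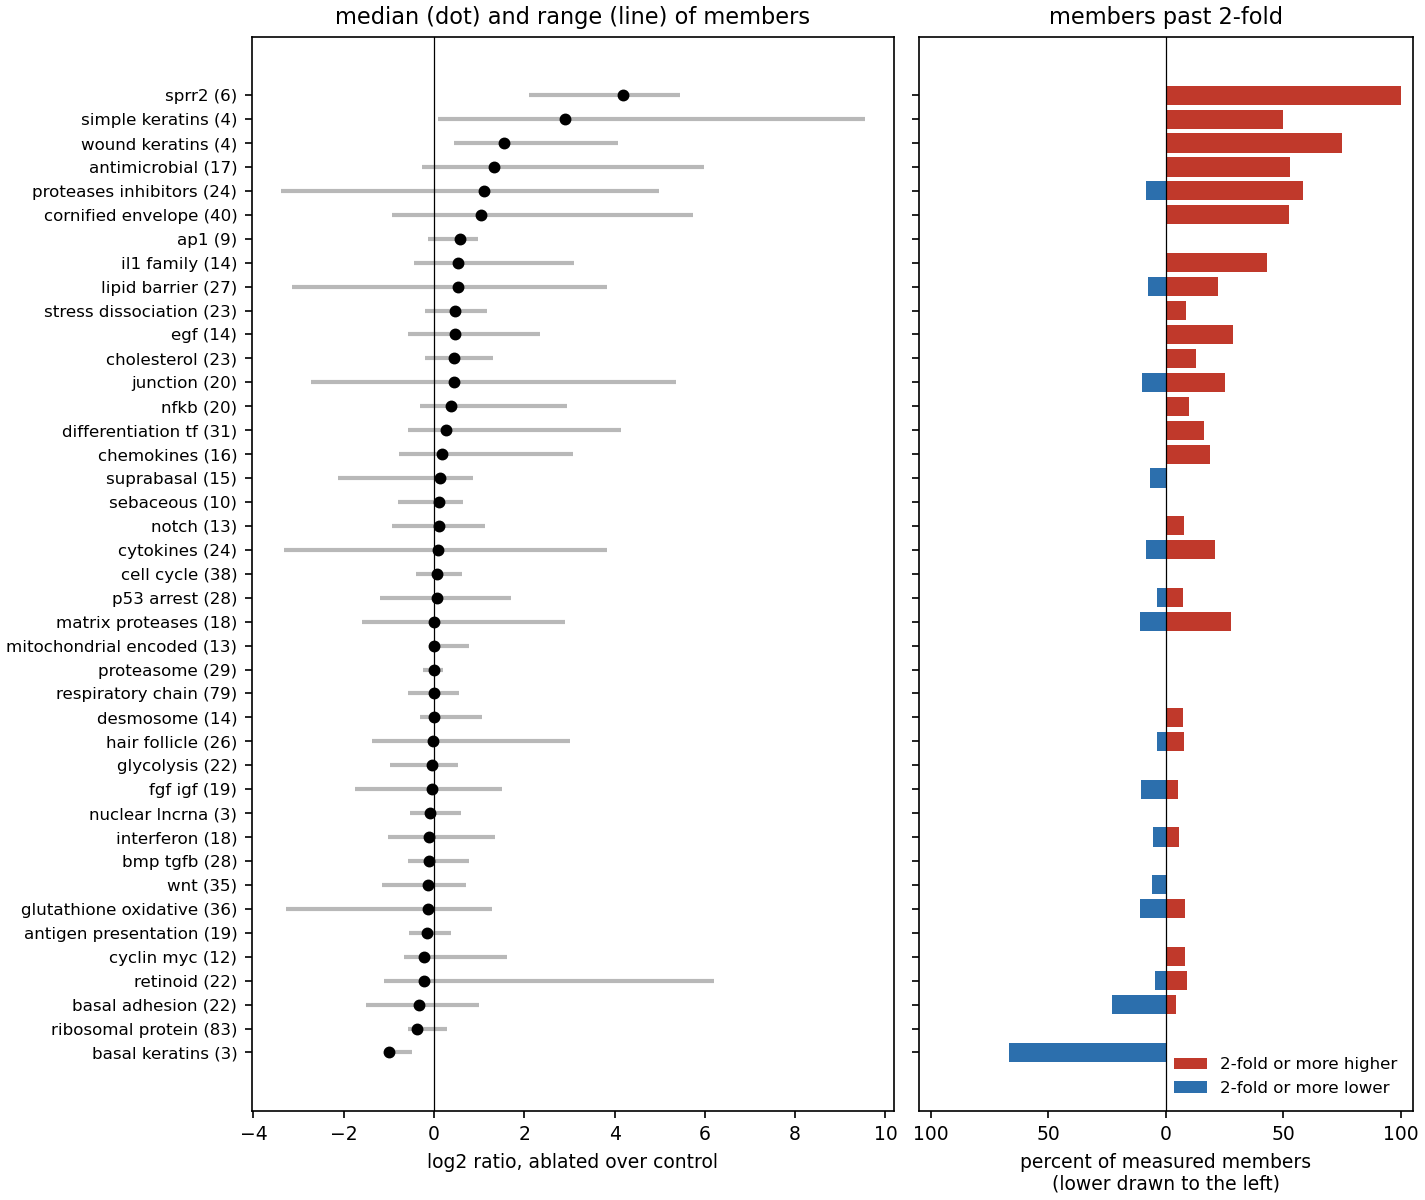
For each of 41 gene groups (measured members in brackets) the left panel gives the median and range of the log2 ratios and the right panel the percent of members at least 2-fold higher (red) or lower (blue). The Sprr2 genes have the highest median at 4.19, and the 3 basal keratins the lowest at -1.01.

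Genes of the cornified envelope, the protein shell of dead surface cells, were called higher in 21 of 40 measured cases and lower in none, with a median log2 ratio of 1.05. Sprr1a, a small proline-rich envelope protein, went from 2741 to 8559 CPM (log2 ratio 1.64, 1.64 to 1.65), the second largest gain in CPM after the nuclear RNA Malat1. Flg, which encodes filaggrin of the granular layer, went from 27.5 to 183 CPM (2.73, 2.69 to 2.77). Its ablated hashtag-led sets lay far apart at 83.2 to 294 CPM, yet all above the control range of 22.2 to 38.6 CPM. Lor, loricrin, went from 394 to 818 CPM, and 1 control set at 643 CPM came close to the lowest ablated set at 652 CPM. With that control set alone the log2 ratio of Lor was 0.35 in place of 1.05. Asprv1, a protease that processes filaggrin, went from 720 to 2630 CPM, Tgm1, which crosslinks the envelope, from 31.6 to 96.7 CPM, and Casp14, a caspase of cornification, from 24.2 to 69.0 CPM. Ivl, involucrin, was the member farthest the other way, at 189 and 98.7 CPM (log2 ratio -0.93), with overlapping sets. The suprabasal group differed less, with 0 of 15 members called higher and 1 lower. The spinous keratins Krt1 (2252 and 1413 CPM) and Krt10 (7240 and 6189 CPM) were within 2-fold, with overlapping sets. Their ratios depended on depth, from the shallowest to the deepest class 0.65, 0.95, -0.50 and -0.69 for Krt1 and 1.22, 1.53, 0.43 and -0.50 for Krt10. The member called lower was Krt2, a late suprabasal keratin, which went from 12.4 to 2.85 CPM.

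All 6 measured members of the 11 Sprr2 genes listed were at least 4-fold higher, with log2 ratios from 2.11 for Sprr2h to 5.44 for Sprr2e. Sprr2e went from 0.816 to 35.5 CPM, Sprr2a3 from 7.69 to 165 CPM and Sprr2d from 6.93 to 148 CPM. These genes are near copies of each other, so the split of reads among them is uncertain, and their sum went from 85.4 to 744 CPM. The late cornified envelope genes differed by subfamily. The 4 measured Lce3 genes, known for being induced when the barrier is damaged, had log2 ratios of 2.26 to 5.74, with control levels of 0.0460 to 2.21 CPM. Of these, Lce3d, Lce3e and Lce3f passed the filter only through their ablated level, as did Sprr2e above. The sign of their ratios was thus set by the filter. Of the Lce1 genes drawn in the plot of gene order, Lce1f and Lce1g were called higher, at 1.05 and 1.41, and the others were within 2-fold.

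Many of these genes are neighbours in the epidermal differentiation cluster on chromosome 3. Between 92014583 and 93449077, a stretch of 1434 kb, 24 of 44 measured protein-coding genes were called higher and none lower, with a median log2 ratio of 1.07. The stretch was bounded by the called genes Pglyrp3 and Tchh. Of the 10 flanking genes 3 were called, S100a8 and S100a9 higher and Them5 lower, from 90.3 to 38.4 CPM. Of the 24, 20 fell into 3 runs of neighbours called the same way, and the others were Sprr1a, Lce6a, Lce1f and Lce1g. The first, from 92014583 to 92419396, held 10 genes from Pglyrp3 to Sprr2j-ps. The second, from 92944486 to 93015687, held the 4 measured Lce3 genes and Crct1, and the third, from 93197278 to 93449077, held Flg2, Flg, Hrnr, Rptn and Tchh. The Lce1 genes and Ivl lay between these runs. Rptn went from 1.93 to 17.6 CPM and Tchh, which encodes the trichohyalin of hair follicles and some specialised epithelia, from 7.36 to 59.3 CPM.

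**Figure D5:**
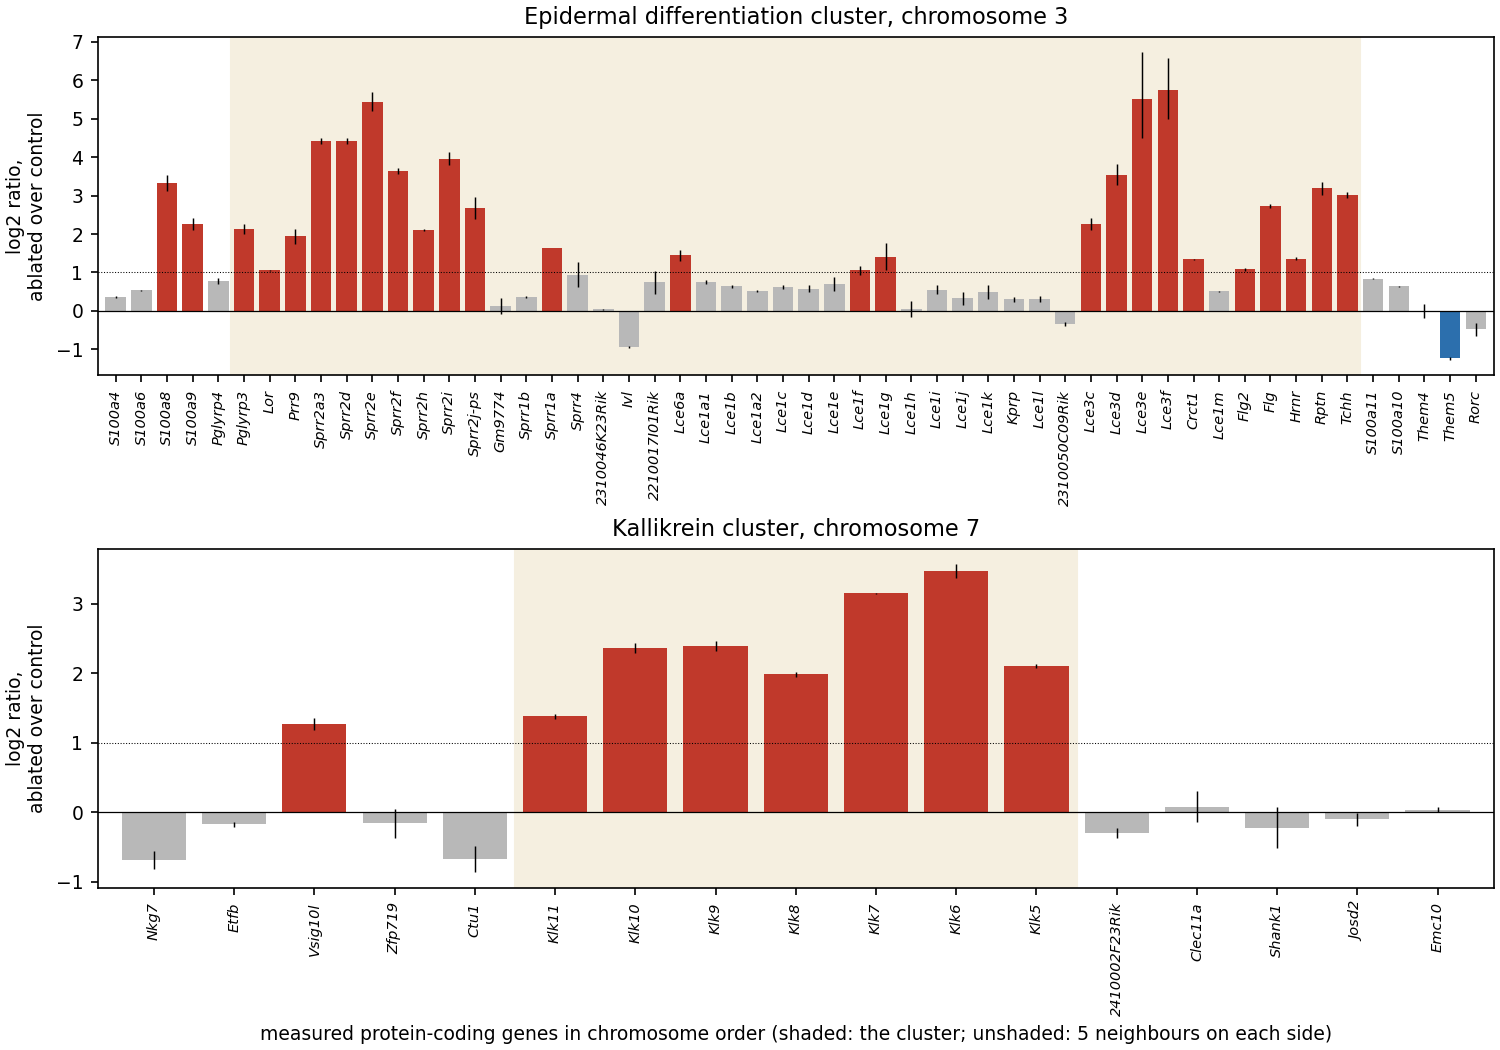
Bars give the log2 ratio of ablated over control, with 95% counting intervals, for measured protein-coding genes in chromosome order across the epidermal differentiation cluster (upper panel) and the kallikrein cluster (lower panel), with 5 neighbours on each side. Red bars are at least 2-fold higher and blue at least 2-fold lower. In the lower panel all 7 kallikreins are red, against 1 of the 10 neighbours. The limits of both clusters were set by called genes.

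To show where a motif of the AP-1 type lies, the 250 bases before the RefSeq start sites of 3 higher genes, of Krt8 and of the lowest gene are printed from GRCm38.p6, in lower case and 5′ to 3′ on the gene's strand. Capitals mark matches of TGANTCA, the core of the AP-1 recognition sequence, which reads the same on both strands. AP-1 is the dimer of Fos and Jun proteins. The 3 higher genes and Serpinb12 were chosen because their windows hold the motif, and Krt8 because it had the highest ratio. Among the named genes with a RefSeq window, 5 of 17 with the highest and 4 of 18 with the lowest ratios hold it. These counts use any window of a gene, at the 300 bases described below. The 5 are Slc6a14 and the related Sprr2d, Sprr2e, Sprr2f and Sprr2i, so they are not independent.
Sprr2e, chr3:92351893-92352142, plus strand: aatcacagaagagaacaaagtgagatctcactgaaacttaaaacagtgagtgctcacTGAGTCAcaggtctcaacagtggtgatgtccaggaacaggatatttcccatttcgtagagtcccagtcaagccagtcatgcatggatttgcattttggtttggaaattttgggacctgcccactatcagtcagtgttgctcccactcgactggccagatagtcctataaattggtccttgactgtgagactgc
Sprr2d, chr3:92338890-92339139, plus strand: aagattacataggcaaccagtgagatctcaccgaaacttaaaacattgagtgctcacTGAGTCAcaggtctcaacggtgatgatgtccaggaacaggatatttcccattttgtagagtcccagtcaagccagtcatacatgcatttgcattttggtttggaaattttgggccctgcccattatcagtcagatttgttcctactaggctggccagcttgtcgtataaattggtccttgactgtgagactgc
Slc6a14, chrX:21714650-21714899, plus strand: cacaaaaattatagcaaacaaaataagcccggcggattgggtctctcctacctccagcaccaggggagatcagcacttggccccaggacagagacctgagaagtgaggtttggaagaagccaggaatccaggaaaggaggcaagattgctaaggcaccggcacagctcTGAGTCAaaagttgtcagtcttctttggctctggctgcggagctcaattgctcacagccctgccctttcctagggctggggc
Krt8, chr15:102004343-102004592, minus strand: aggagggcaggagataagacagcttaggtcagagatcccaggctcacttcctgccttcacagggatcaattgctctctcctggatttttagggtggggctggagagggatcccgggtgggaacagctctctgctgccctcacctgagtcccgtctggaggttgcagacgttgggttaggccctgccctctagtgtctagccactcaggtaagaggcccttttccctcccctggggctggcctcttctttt
Serpinb12, chr1:106934199-106934448, plus strand: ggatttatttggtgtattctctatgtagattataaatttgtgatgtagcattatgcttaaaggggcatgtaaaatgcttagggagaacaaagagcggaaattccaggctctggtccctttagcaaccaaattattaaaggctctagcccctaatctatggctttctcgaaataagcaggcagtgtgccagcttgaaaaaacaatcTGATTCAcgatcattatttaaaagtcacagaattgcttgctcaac
The match begins 193 bases before the start in both Sprr2 promoters and 82 bases before it in Slc6a14. No TGANTCA lies in the Krt8 window, and the window of Serpinb12, whose level was lower in the ablated library, also holds a match. The Krt8 window lies partly inside the gene span given above, which starts at 102004482 on the minus strand. The lack of a match thus holds for this RefSeq window only. Over 300-base windows, from 250 bases before to 50 after a start, 14.6% of the 397 windows of genes called higher held TGANTCA. The share was 5.74% of the 209 windows of genes called lower and 5.27% of the 11025 windows of genes within 2-fold, and 7.81% of all 32851 windows in the RefSeq table. TATAAA on either strand was found in 15.6% of windows of higher genes, 17.2% of lower genes and 6.98% of genes within 2-fold, and in 13.6% of all windows. A pair of p63-type cores, CATG followed after 6 bases of any kind by CATG, was found in 1 window of a higher and 1 of a lower gene, 0.252% and 0.478%, in 0.308% of windows of genes within 2-fold and in 0.712% of all windows. These shares cover the 312 higher and 166 lower genes that the table holds, and a match is not a bound site. The windows are not independent, since 1 gene can have several and the printed Sprr2e and Sprr2d windows are near copies.

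Proteases that shed the surface layer, and their inhibitors, included 14 of 24 measured members called higher and 2 lower. On chromosome 7, from 43774604 to 43851181, all 7 measured kallikreins were higher, and 1 of the 10 neighbouring genes. The limits of this stretch were taken from the calls, as a run of neighbours called the same way. Klk7, which cleaves the junctions between surface cells, went from 333 to 2946 CPM (log2 ratio 3.14, 3.13 to 3.16). Its sets spanned 281 to 419 CPM without and 2688 to 3432 CPM with ablation. Klk5, the protease upstream of it, went from 61.2 to 262 CPM, Klk6 from 5.54 to 61.2 CPM and Klk11 from 39.4 to 102 CPM. Spink5, the inhibitor of these kallikreins, went from 590 to 1201 CPM, a smaller log2 ratio of 1.02 (1.01 to 1.04). The serpins went both ways. Serpinb3a went from 0.172 to 5.45 CPM, while Serpinb3b went from 15.1 to 2.91 CPM and Serpinb12 from 57.2 to 5.46 CPM (-3.39, -3.50 to -3.28). Serpinb12 had the lowest ratio bound of all genes of at least 10 CPM, and its sets were tight, at 62.1 to 70.5 CPM and 5.13 to 7.37 CPM.

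Barrier lipid genes also went both ways, with 6 of 27 called higher and 2 lower. The lipoxygenase pair that processes barrier ceramides was higher, Alox12b from 26.9 to 125 CPM and Aloxe3 from 28.9 to 72.2 CPM. Their relatives Alox12 and Alox12e were lower, from 10.2 to 1.14 CPM (-3.16, -3.40 to -2.92) and from 153 to 56.2 CPM (-1.45, -1.48 to -1.41). The sets of the libraries did not overlap for any of these 4 genes, as for 395 of all 426 higher and 211 of all 221 lower genes. Degs2, which makes phytoceramides, went from 0.218 to 3.11 CPM and Ugcg, which glycosylates ceramide, from 115 to 337 CPM. Of 23 cholesterol synthesis genes 3 were called higher and none lower, with a median of 0.45, and in 14 of them all ablated sets lay above the control sets, beside 17.9% of all measured genes. Hsd17b7 went from 36.7 to 90.2 CPM.

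Keratins of wounded and thickened epidermis were higher in 3 of 4 cases. Krt16 went from 714 to 2485 CPM (1.80, 1.79 to 1.81). It was seen in 72.5% of ablated and 35.4% of control thinned barcodes, against 49.9% and 16.6% of immune-marker barcodes. At the planned limit of 5 immune-marker UMIs the latter shares were 68.3% and 30.6%. Krt6a and Krt6b, near copies whose reads may be split wrongly, were also higher (317 to 775 CPM and 9.70 to 164 CPM). The log2 ratio of Krt6a depended on barcode depth, at 0.26 and 0.35 in the 2 shallower depth classes and 1.40 and 1.79 in the 2 deeper ones, and 0.55 with ablated barcodes of hashtag 3 only. Krt6b varied widely within each library, from 0.956 to 28.6 CPM over the control sets and from 36.3 to 317 CPM over the ablated sets.

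Of 31 transcription factors of epidermal differentiation, 5 were called higher and none lower. Elf3, an epithelial ETS factor, went from 3.96 to 70.1 CPM (4.15, 4.04 to 4.26), with sets of 4.00 to 5.37 CPM and 48.7 to 107 CPM. Its relatives Elf5 (1.14 to 17.9 CPM) and Ehf (210 to 479 CPM) were higher too. Prdm1, which encodes the repressor Blimp1 of granular and sebaceous cells, went from 49.3 to 219 CPM, and Grhl3, a grainyhead factor needed for the barrier, from 36.2 to 96.8 CPM. No ablated set overlapped a control set for these 5 genes. That held for 395 of the 426 higher genes and, in this direction, 17.9% of all measured genes. Mxd1, a Myc antagonist of differentiating cells, went from 84.7 to 261 CPM.

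None of 9 measured AP-1 genes was called. Their median was 0.58, their log2 ratios ran from -0.13 for Jun to 0.98 for Fos, and in 7 of them the ablated sets all lay above the control sets, beside 17.9% of all measured genes. Fos was at 289 and 568 CPM (0.98, 0.96 to 0.99). Its ratio depended on barcode depth, at -0.18 and -0.06 in the 2 shallower depth classes and 1.22 and 1.34 in the 2 deeper ones. Genes known to respond to tissue dissociation had 2 of 23 members called higher, Dusp1 (382 to 862 CPM) and Egr2 (52.6 to 108 CPM), with a median of 0.46. The digestion temperature of each library is not labelled, and its part in these levels was not tested.

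In the EGF family group 4 of 14 measured members were called higher and none lower, and all 4 encode ligands of the EGF receptor, which drive keratinocyte growth and migration. Hbegf went from 186 to 818 CPM (2.14, 2.12 to 2.16), Areg from 61.2 to 312 CPM, Epgn from 110 to 382 CPM and Ereg from 48.9 to 122.9 CPM. The ligands Tgfa and Btc, at log2 ratios of 0.56 and 0.31, and the receptor Egfr, at -0.06, were within 2-fold. Nrg1, a ligand of related receptors, was at -0.57 with all ablated sets below the control sets. Areg varied most within the ablated library, from 207 to 522 CPM, and its control sets spanned 48.9 to 89.9 CPM.

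In the interleukin 1 family 6 of 14 measured genes were called higher and none lower, not counting Il1f5, which was listed with the cornified envelope genes. A run of 5 neighbours on chromosome 2, from 24153161 to 24351494, was called higher, and none of the 10 flanking genes was called. Runs were defined by the calls, so their uniform direction and their ends were set in advance. This run holds Il1f6, Il1f8 and Il1f9, the IL-36 cytokines, and Il1f5 and Il1rn, antagonists of the IL-36 and IL-1 receptors. Agonists and antagonists were both higher. Il1f9 went from 15.5 to 62.8 CPM, Il1f6 from 1.26 to 10.8 CPM, Il1f5 from 30.02 to 101 CPM and Il1rn from 86.3 to 274 CPM. Il1a went from 2.54 to 16.6 CPM, and Il18 from 10.7 to 37.3 CPM. Within the ablated library Il18 spanned 20.3 to 57.1 CPM, and with ablated barcodes of hashtag 3 only its log2 ratio was 0.93. Il18 was seen in 3.44% of ablated and 0.817% of control thinned barcodes, and more often in the immune-marker barcodes, at 14.9% and 6.75%. At the planned limit of 5 immune-marker UMIs the latter shares were 7.17% and 2.51%. The immune-marker barcodes differed in make-up between the libraries, as given above for Cd3e.

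Among other cytokines 5 of 24 were called higher and 2 lower. Tslp, an epithelial cytokine of type 2 inflammation, went from 16.2 to 232 CPM (3.84, 3.78 to 3.90). Its ablated sets were uneven at 113, 137 and 364 CPM, and its control sets were at 10.7 to 26.6 CPM. It was seen in 12.4% of ablated and 1.95% of control thinned barcodes, against 5.97% and 0.927% of immune-marker barcodes. At the planned limit of 5 immune-marker UMIs the latter shares were 12.4% and 1.92%, near those of all barcodes. Tnf went from 4.78 to 13.8 CPM. Lower were Tnfsf18, the ligand of GITR, from 6.02 to 0.600 CPM, and Il20ra, from 3.64 to 0.781 CPM. Of 16 chemokine genes 3 were called higher, among them Ccl22, which attracts regulatory and type 2 T cells, from 0.811 to 6.84 CPM, and Cxcl2, which attracts neutrophils, from 7.67 to 18.1 CPM. Of 20 NF-κB pathway genes 2 were called higher, Tnip3 and Nfkbid, with a median of 0.38. Interferon response genes had 1 of 18 higher (Irf7, 2.35 to 5.97 CPM) and 1 lower (Oasl2, 2.83 to 1.40 CPM), and none of 19 antigen presentation genes was called.

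Antimicrobial genes were called higher in 9 of 17 cases and lower in none. Besides Slpi they included the related Wfdc12, from 0.195 to 8.13 CPM, and the calprotectin pair S100a8 and S100a9. Wfdc12 passed the filter only through its ablated level. S100a8 went from 1.16 to 11.6 CPM with separate sets, and S100a9 from 2.52 to 12.2 CPM with sets that touched (1.89 to 4.40 CPM and 4.30 to 15.5 CPM). Both genes are abundant in neutrophils. Of 6 neutrophil markers Cxcr2 alone was measured, at 0.793 and 5.31 CPM, while Ly6g and Ngp had 0 UMIs in both libraries and Csf3r, Retnlg and Mmp8 had at most 1.

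Of 3 basal keratins 2 were called lower. Krt5 went from 2093 to 973 CPM, and Krt15 from 2425 to 1207 CPM, while Krt14, at 5083 and 3623 CPM, was within 2-fold. With control barcodes of hashtag 3 only, both calls ended, at log2 ratios of -0.90 for Krt5 and -0.74 for Krt15. Of 22 measured genes of basal adhesion 5 were called lower and 1 higher. The 5 were Col17a1, Col7a1, Dst, Lamb3 and Frem2, and Col7a1, the anchoring fibril collagen, went from 19.5 to 7.14 CPM. Itgb6, an integrin subunit of activated keratinocytes, was the higher one, from 37.0 to 74.1 CPM. Desmosome genes had a median of -0.01 with 1 of 14 called, Dsc2, from 3.95 to 8.21 CPM.

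Tight junction and cadherin genes went both ways, with 5 of 20 called higher and 2 lower. Cldn7 went from 0.276 to 11.3 CPM (5.36, 4.95 to 5.81), and Cldn4 from 73.5 to 396 CPM (2.43, 2.40 to 2.46). Both are claudins common to simple epithelia. Epcam, an adhesion molecule of simple epithelia and of follicle and immune cells in skin, went from 787 to 1712 CPM. The 2 lower genes were classical cadherins. Cdh4 went from 15.02 to 2.27 CPM and Cdh3, the P-cadherin of basal and follicle cells, from 38.1 to 15.4 CPM. The sets of the libraries were separate for these 5 genes, as for 395 of all 426 higher and 211 of all 221 lower genes.

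The group of matrix proteases, their inhibitors and receptors had 5 of 18 members called higher and 2 lower. Plau, the urokinase, went from 3.98 to 22.2 CPM, its receptor gene Plaur from 7.85 to 20.3 CPM and Plat, the tissue plasminogen activator, from 3.94 to 10.4 CPM. Timp1, an inhibitor of metalloproteases, went from 0.696 to 5.22 CPM and Mmp10 from 7.04 to 28.2 CPM. Lower were Mmp3 (48.0 to 20.8 CPM) and Adam8 (43.8 to 14.6 CPM).

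In the same ranking from the low end, Mt4 followed Serpinb12. Mt4, the metallothionein of stratified epithelia, went from 268 to 41.0 CPM (-2.71, -2.75 to -2.67) with sets of 200.1 to 334 CPM and 30.6 to 52.2 CPM. Hpgds, which makes prostaglandin D2, went from 92.0 to 15.1 CPM, and Ltb4r1, a leukotriene B4 receptor, from 43.8 to 11.5 CPM. Clca3a2, of a family of chloride channel regulators, went from 524 to 123.5 CPM. Cbr2, a carbonyl reductase, went from 23.5 to 4.74 CPM, Cbs, the cystathionine synthase, from 26.0 to 5.87 CPM and Ch25h, which makes 25-hydroxycholesterol, from 26.6 to 7.71 CPM. Igfbp3, which binds insulin-like growth factors, went from 557 to 165 CPM. Its control sets were uneven at 300, 666 and 672 CPM, and with the lowest of them as the control its log2 ratio was -0.86 in place of -1.76. Dapl1 went from 704 to 236 CPM with separate sets.

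Ttk, a kinase of the mitotic spindle checkpoint, was among the lowest too, from 38.6 to 6.19 CPM (-2.64, -2.74 to -2.54), with sets of 40.7 to 48.6 CPM and 4.16 to 7.98 CPM. The cell cycle group, which does not list Ttk, had none of 38 members called, a median of 0.06 and a summed level of 842 and 840 CPM. Over the alternatives run, that median lay between -0.07 and 0.17, so it has no stable sign.

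Of 36 genes of glutathione metabolism and oxidative defence 3 were called higher and 4 lower. Lower were the transferases Gsta4 (9.49 to 0.977 CPM), Gstm1 (57.6 to 25.3 CPM) and Mgst2 (11.9 to 4.39 CPM), and Mt4. Higher were Srxn1 (68.1 to 166 CPM), Hmox1 (10.1 to 22.1 CPM) and Txnrd1 (139 to 291 CPM), and the median log2 ratio of the group was -0.14. A run of 4 alcohol dehydrogenase genes on chromosome 3, from 138217760 to 138358861, was called lower, and the run was defined by these calls. Adh7, which oxidises retinol, went from 31.2 to 10.0 CPM, Adh1 from 11.5 to 3.06 CPM, Adh6a from 15.9 to 5.80 CPM and Adh6b from 8.52 to 1.49 CPM. The retinoid group, which does not list these Adh genes, had 2 of 22 members called higher and 1 lower. Fabp7, a fatty acid binding protein, went from 0.149 to 10.97 CPM (6.20, 5.64 to 6.82), but its ablated sets spanned 1.36 to 19.6 CPM.

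The Notch group had 1 of 13 higher, Notch2, from 32.0 to 70.4 CPM. The Wnt group had 2 of 35 lower, Wnt5a (3.19 to 1.43 CPM) and Wnt6 (4.04 to 1.90 CPM), and the BMP and TGF-β group none of 28. In the FGF and IGF group Igfbp5 was higher, from 2.66 to 7.52 CPM, and Igfbp2 and Igfbp3 lower. Of 28 genes of p53 and arrest 2 were higher and 1 lower. Pmaip1, a proapoptotic p53 target, went from 21.7 to 70.3 CPM and Btg2, an antiproliferative gene, from 447 to 1082 CPM, whereas Phlda3, another p53 target, went from 102 to 44.6 CPM. Of 12 cyclin and Myc network genes Mxd1 alone was called. Hair follicle genes had 2 of 26 higher and 1 lower, and none of 10 sebaceous genes was called.

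Core cellular machinery differed by less, and the medians of the proteasome, glycolysis, mitochondrially encoded and noncoding groups changed sign under at least 1 alternative. None of 83 measured ribosomal protein genes was called, but their median was -0.37 and in 80 of them all ablated sets lay below the control sets, beside 21.3% of all measured genes. None was called of 79 respiratory chain genes (median -0.01), 29 proteasome genes (0.01), 22 glycolysis genes (-0.04), 13 mitochondrially encoded genes (0.01) or 3 nuclear long noncoding RNAs (-0.09). The largest loss in CPM was that of Apoe, the lipid carrier apolipoprotein E, from 6150 to 2574 CPM (-1.26, -1.26 to -1.25), with sets of 5436 to 6509 CPM and 2315 to 2805 CPM. The other 9 largest losses were ribosomal protein genes, Tpt1, Krt14 and Sfn, each within 2-fold.

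Cell types other than keratinocytes were read from their markers. T cell markers were lower, with 4 of 12 called and none higher, and their sum went from 159 to 70.8 CPM. The sums of the hashtag-led sets were 159 to 240.0 CPM (control) and 82.2 to 97.3 CPM (ablated). Trbc2, a T cell receptor constant gene, went from 58.9 to 20.8 CPM, Thy1 from 21.1 to 6.95 CPM, Trdc, of the γδ receptor of resident epidermal T cells, from 18.1 to 8.08 CPM and Cd3g from 19.7 to 9.17 CPM. The ratio of Cd3e, a listed marker within 2-fold, depended on barcode depth, at -2.83, -0.95, -0.37 and -0.73 from the shallowest to the deepest class. Trac, of the αβ receptor, stood at 1.32 and 1.33 CPM. None of 11 measured Langerhans cell and myeloid markers was called. Fibroblast markers summed to 89.0 and 87.4 CPM. Their hashtag-led sets lay apart, at 48.1 to 65.0 CPM (control) and 35.7 to 45.9 CPM (ablated). Melanocyte markers summed to 20.7 and 19.2 CPM. Mural cell markers summed to 21.8 and 16.2 CPM with overlapping sets, and 2 of their 3 measured members were called lower. Red blood cell markers summed to 14.2 and 31.8 CPM with overlapping sets. With all barcodes left out that held at least 5 UMIs of T cell, myeloid, melanocyte, fibroblast, endothelial or mural markers, 463 genes were higher and 240 lower, and 411 and 202 of these were called in the full sums.

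The 1-week libraries, made with a 5′ kit and compared only with each other, give the same genes side by side. Of the 409 genes called higher at 1 day and measured at 1 week, 373 were on the same side of 0, where 57.9% of genes measured at both times lay. Of the 213 called lower, 191 were below 0, where 42.1% lay. At least 2-fold the same way were 248 and 120, where 8.29% of all genes measured at 1 week were that much higher and 3.37% that much lower, and 7 of each were at least 2-fold the other way. Krt8 had a 1-week log2 ratio of 8.11, Slpi 5.69, Klk7 3.29 and Elf3 4.63. Ligands of the EGF receptor had smaller values at 1 week for Areg (0.75 beside 2.35) and Hbegf (1.24 beside 2.14) and a larger one for Ereg (2.34 beside 1.33). Apoe had -0.19 at 1 week beside -1.26. The differences between the times were not tested.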

How the data were processed

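Droplet libraries of trypsin-dissociated epidermis were counted per gene with Cell Ranger 5.0.1 on mm10, with Seurat also named, per the submitters' processing notes. The deposited matrices hold raw UMI counts per gene and barcode, as whole numbers, with 4 hashtag features in the one-day libraries per the file headers. Barcodes with at least 1368 gene UMIs and at most 15% mitochondrial UMIs were summed per library, and hashtag features were left out of the totals. Doublets were not removed, and 1 alternative leaves out the 10% of barcodes with most UMIs. Genes with a mean of at least 1 CPM were measured, and a difference of at least 2-fold is called higher or lower. Intervals are exact binomial (Clopper-Pearson) intervals at 95%, with numpy 2.4.6, scipy 1.17.1 and pandas 2.3.3 in Python 3.11.15. They were tested on simulated Poisson counts, which lack the spread between barcodes and so check the calculation for counting error only. A count of 0 is given with the limit of 3 counts. Sequencing depth sets the width of each interval. TMM scaling from edgeR 4.0.16 in R 4.3.3 was an alternative. The members and gene lists were chosen with earlier results of these data known. Named genes, among those of at least 10 CPM in the mean, are the 20 highest and 20 lowest by the interval bound nearest 0 and the 10 largest gains and losses in CPM, besides Trp63 and the listed genes. Genes in runs of at least 4 neighbours called the same way were named after their values were seen. The background of barcodes with at least 20 immune-marker UMIs was chosen after seeing the data. The planned background was barcodes with at least 5 such UMIs before thinning. Promoter windows are from RefSeq.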

Additional observations from a re-analysis of the deposited data

Results flagged for a closer look

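Genes of opposite sign at 1 day and 1 week were singled out. The differences were not tested, the kits differ, and each value is a log2 ratio of ablated over control with 1 library a side. Lower at 1 day and higher at 1 week were Gsta4 (-3.28 and 1.80), Serpinb3b (-2.38 and 1.46), Igfbp2 (-1.65 and 1.61), Gm8797 (-1.32 and 1.63) and Acaa1b (-1.16 and 1.13). The smooth muscle genes Tagln (-2.13 and 1.505) and Acta2 (-1.79 and 1.93) had the same order of signs. Krt14 was at -0.49 and 0.40. Higher at 1 day and lower at 1 week were Ache (1.00 and -1.12), Prnd (1.19 and -1.12), Gkn1 (1.21 and -1.80) and Gm45792 (1.87 and -2.17). The haemoglobin genes Hba-a2 (1.27 and -1.19), Hbb-bs (2.01 and -1.10) and Hbb-bt (2.89 and -1.09) shared that order. Actb was at 0.69 and -0.10. Several of these genes had low 1-day levels in control and ablated. They include Tagln (2.10 and 0.481 CPM), Acta2 (2.12 and 0.614 CPM) and Acaa1b (1.74 and 0.781 CPM). Gm45792 (0.696 and 2.55 CPM) and Hbb-bt (0.506 and 3.74 CPM) were low too.

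The hashtag features, which no group label uses, held signal. Median counts per barcode of hashtags 1, 2 and 3 were 86, 113 and 110 in the control and 70, 139 and 71 in the ablated library, while the fourth had a median of 0.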

How the results depend on the processing

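No paired analysis was possible because each group was 1 library. All 53 named genes past 2-fold, of 74 tried, had the same sign in all 15 settings run on genes, and 46 stayed past 2-fold in all of them, the exceptions being Cd59a, Igfbp3, Il18, Krt15, Krt5, Krt6a and Lor. Of the 74, 5 genes within 2-fold changed sign, with log2 ratios from -1.13 to 0.18 for Krt1, -0.43 to 0.24 for Krt10, -1.38 to 0.95 for Cd3e, -0.78 to 0.83 for Ptprc and -0.53 to 0.23 for Top2a. By depth class, the sign differed for Fos, Krt1, Krt10 and Top2a. The log2 ratio of Trp63 was -1.91 with totals that leave out mitochondrial and ribosomal protein genes, -1.74 as a mean over single barcodes, -1.91 at 3000 or more UMIs, -1.84 without the 10% of barcodes with most UMIs and -1.90 without barcodes with other cell type markers. It was -1.94, -1.97 and -1.73 with ablated barcodes of hashtag 1, 2 or 3 only, and -1.76, -1.87 and -1.73 with control barcodes of hashtag 1, 2 or 3 only. With these ablated subsets 369, 447 and 338 genes were called lower. With no filter beyond 10 UMIs over both libraries 1090 genes were called higher and 777 lower, and at a mean of at least 10 CPM 231 and 88, by construction of the filter. The difference in the share of barcodes with Trp63 was -45.8 percentage points without thinning and -41.8 at 3000 UMIs, beside -25.8 at 1368. Shares of barcodes reversed for Krt14 without thinning (-1.53 points) and for Top2a without thinning (-1.67) and at 3000 UMIs (-0.0375). The cause was not tested. Medians of 12 gene groups changed sign under at least 1 setting, none of them farther than 0.12 from 0 in the full sums. Group medians were not computed for the hashtag-led subsets, so these settings are fewer than those run on genes. Depth limits genes near 1 CPM most, since their sums rest on few UMIs.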
